A study of Carassius auratus with 6 samples.

Results

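Complexes II, III and IV of the mitochondrial respiratory chain were followed in RNA sequencing data from eyeballs of goldfish (Carassius auratus). Members were the gene models whose best Swiss-Prot match carried the gene name of a subunit or assembly factor of these complexes. These names were sdha to sdhd and sdhaf for complex II, cyc1, uqcr and uqcc for complex III, and cox4 to cox8 and cox10 to cox20 for complex IV, beside cycs for cytochrome c, a name that no model carried. The rule found 83 of 56251 gene models, under 35 names. Of these, 71 models under 33 names had at least 1 FPKM (reads per kilobase of gene model, scaled to the reads of the library) in at least 3 of the 6 libraries and were tested.

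The 6 libraries were 3 with titles in C and 3 with titles in R, each from whole eyeballs of fish 1 winter year old. The study compared normal eyes with celestial eyes, a fancy-breed trait in which the eyes are turned upward. The labels contradict each other: C is normal-eyed in the characteristics of the samples and celestial-eyed in the series' design, and R the reverse, so the groups keep their letters here and every difference is C against R. The fish of the groups came from different farms, 1 in Jiangsu and 1 in Beijing, so that farm and phenotype cannot be told apart. No label ties a library to a fish, and p-values therefore measure the spread between these libraries, which may be technical. No further alleles, agents or treatments are given in the labels.

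Complex II, succinate dehydrogenase, oxidises succinate in the citric acid cycle and passes the electrons to ubiquinone. Complex III carries electrons on to cytochrome c, and complex IV, cytochrome c oxidase, passes them to oxygen, both while storing energy as a proton gradient. The catalytic core of complex IV is encoded in mitochondrial DNA, while its accessory subunits are encoded in the nucleus and often exist as isoforms that differ between tissues. The retina is among the most oxygen-demanding tissues, and the inner segments of photoreceptors are packed with mitochondria.

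Libraries held 9444623 to 11317200 reads counted in genes, and in all of 33907 tested models 20.2% were called different between C and R (limma, Benjamini-Hochberg adjusted p below 0.05). The tissue label matched its markers. Rod markers summed to 24011 to 32457.5 FPKM in C and 24846 to 29727 FPKM in R, with 4 of 6 symbols found. Marker sums of several other cell types did not overlap between the letters. Cone markers (5 of 6 found) summed to 6132 to 9746 FPKM in C and 3151 to 3715 FPKM in R. Lens markers (5 of 7 found) summed to 14233 to 26052 FPKM in C and 28786 to 30507 FPKM in R, and surface epithelium markers (5 of 6 found) to 354 to 470.5 FPKM in C and 699.8 to 1108 FPKM in R. Red blood cell markers (4 of 5 found) summed to 9160 to 23354 FPKM in C, with the highest value in C3, and 2547 to 5549 FPKM in R. Sums overlapped between the letters for skeletal muscle markers (8 of 9 found, with tnnc2 at 0 in some libraries), pigment cell markers (6 of 6) and leukocyte markers (5 of 5). The part of these differences in the results below was not tested. In whole eyeballs, fewer cells of a type and less RNA per cell cannot be told apart.

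Goldfish carry a duplicated genome, and most member names had several gene models, called copies below. There were 25 names with at least 2 models. Of the 16 names with exactly 2, 14 had their copies on chromosomes numbered 25 apart (87.5%, against 76.32% of 4543 such names in the whole table), the numbering of the duplicated chromosome sets. Changes of the summed FPKM of a name are therefore given first and changes of single copies after them. Reads of near-identical copies may be divided between models in ways that the table does not show.

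The 12 member models that were not tested reached at most 1.43 FPKM in any library, and 4 of them had no read. They included the single models of sdhda, a membrane anchor subunit of complex II, and cox11, a copper chaperone of complex IV. Just above the minimum lay a cox8b copy on chromosome 25, with 1.16 FPKM in its third-highest library, and sdhaf2, with 1.20 FPKM. Just below it lay a cox16 copy, with 0.977 FPKM, and a uqcrfs1 copy, with 0.628 FPKM.

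Subunits of complexes III and IV were at higher levels in the C libraries, and complex II differed less. The FPKM of complex III subunits summed to 699, 716 and 889.8 in C1, C2 and C3, against 597, 559 and 551 in R1, R2 and R3, a ratio of means of 1.35. Complex IV subunits summed to 1275, 1153 and 1536 FPKM in C, against 1002, 939 and 963 FPKM in R, a ratio of 1.36. All 3 C libraries lay above all 3 R libraries for both complexes, and C3 was the highest. Complex II subunits summed to 136, 138 and 177 FPKM in C, against 127, 125 and 134 FPKM in R, a ratio of 1.17. These sums were only just apart, and as a share of reads the groups overlapped, with 0.0195% in C1 and 0.0198% in R3. Assembly factors of the 3 complexes summed to 237, 233 and 314 FPKM in C, against 272, 239 and 248 FPKM in R, and these ranges overlapped. The members together took 0.223% ± 0.0325 of the reads in C, against 0.174% ± 0.00687 in R (SD, n = 3 each).

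**Figure D1:**
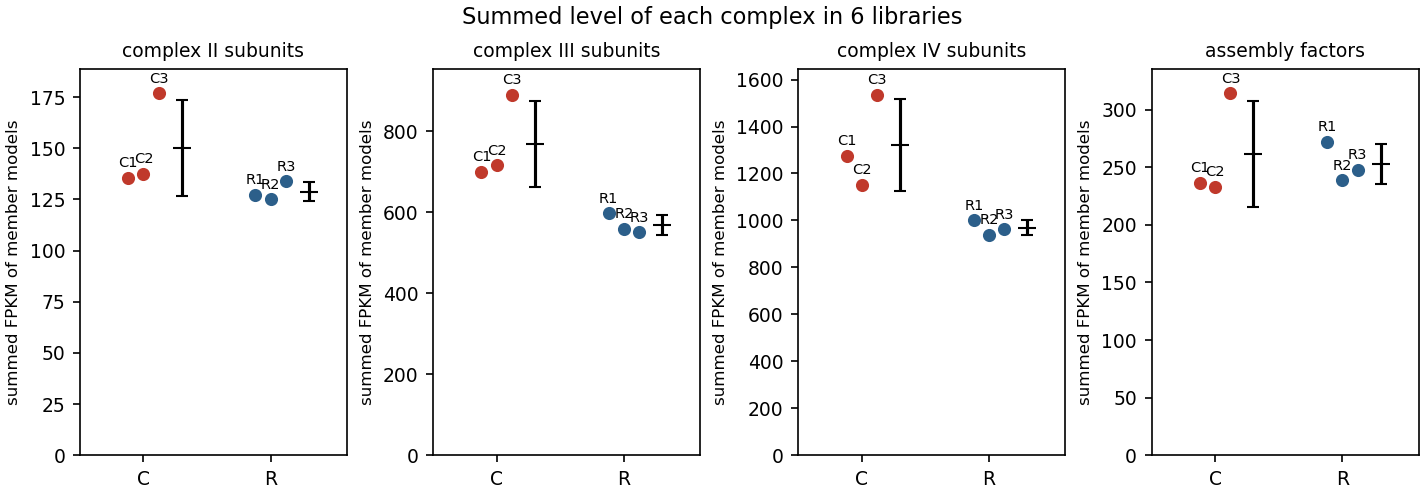
Summed FPKM of the member models of each complex (vertical axes, each from 0) in the 3 C and 3 R libraries (points), with the mean and SD of each group beside them. Subunits of complexes III and IV kept all C libraries above all R libraries, C3 was highest in every panel, and the assembly factors overlapped.

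C3 had a large part in the size of these ratios. Its value was the highest of the 6 libraries for 21 of 21 subunit names and 8 of 12 assembly factor names, where it was the highest for 14.6% of all tested names. Without C3 the log2 ratio of the summed FPKM was 0.31 for complex III, 0.33 for complex IV and 0.09 for complex II, against 0.43, 0.45 and 0.22 with all libraries. For the assembly factors it was -0.11 without C3, against 0.05 with all libraries. C3 also held the highest sums of rod, cone, red blood cell and pigment cell markers (32457.5, 9746, 23354 and 616 FPKM). It held the lowest sums of skeletal muscle markers (1169 FPKM, against 1966 to 4207 FPKM in the other libraries) and surface epithelium markers (354 FPKM). For lens and leukocyte markers it was neither the highest nor the lowest.

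Summed over copies, 9 of 33 member names were called higher in C, where 7.93% of all 12592 tested names were, and 2 were called lower, where 11.2% of all names were. Complex III gave 5 of the 9 names called higher (cyc1, uqcr11, uqcrb, uqcrh and uqcrq), complex IV gave cox6b1 and cox8b, and complex II gave sdhb. The ninth was sdhaf4, and both names called lower, cox15 and cox18, were assembly factors too. The libraries of C and R did not overlap for 21 names (41.8% of all names), with C above R for 18 (16.2%) and below R for 3 (25.6%). Log2 fold changes, on the log2(FPKM + 1) scale throughout, had a median of 0.33 over the 33 names and -0.06 over all names. They were above 0 for 27 member names, where 42.7% of all names were. The count of calls depended on single libraries. Sums called higher were 6, 12 and 7 without C1, C2 and C3, and 3, 1 and 3 without R1, R2 and R3; the sum called higher without R2 was uqcr11. Sums called lower were 1 without C1, C2, R1, R2 or R3, and 2 without C3. After quantile normalization the calls of sdhb, cyc1, uqcrb, uqcrh, cox6b1 and cox18 were lost (adjusted p between 0.0524 and 0.130). Over all names, 578, 804 and 1362 were called higher without C1, C2 and C3, against 998 with all libraries. Without R1, R2 and R3 these were 535, 461 and 640, and after quantile normalization 1250. Calls lower over all names were 794, 1587 and 1390 without C1, C2 and C3, against 1415 with all libraries. Without R1, R2 and R3 the calls lower were 678, 580 and 777.

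**Figure D2:**
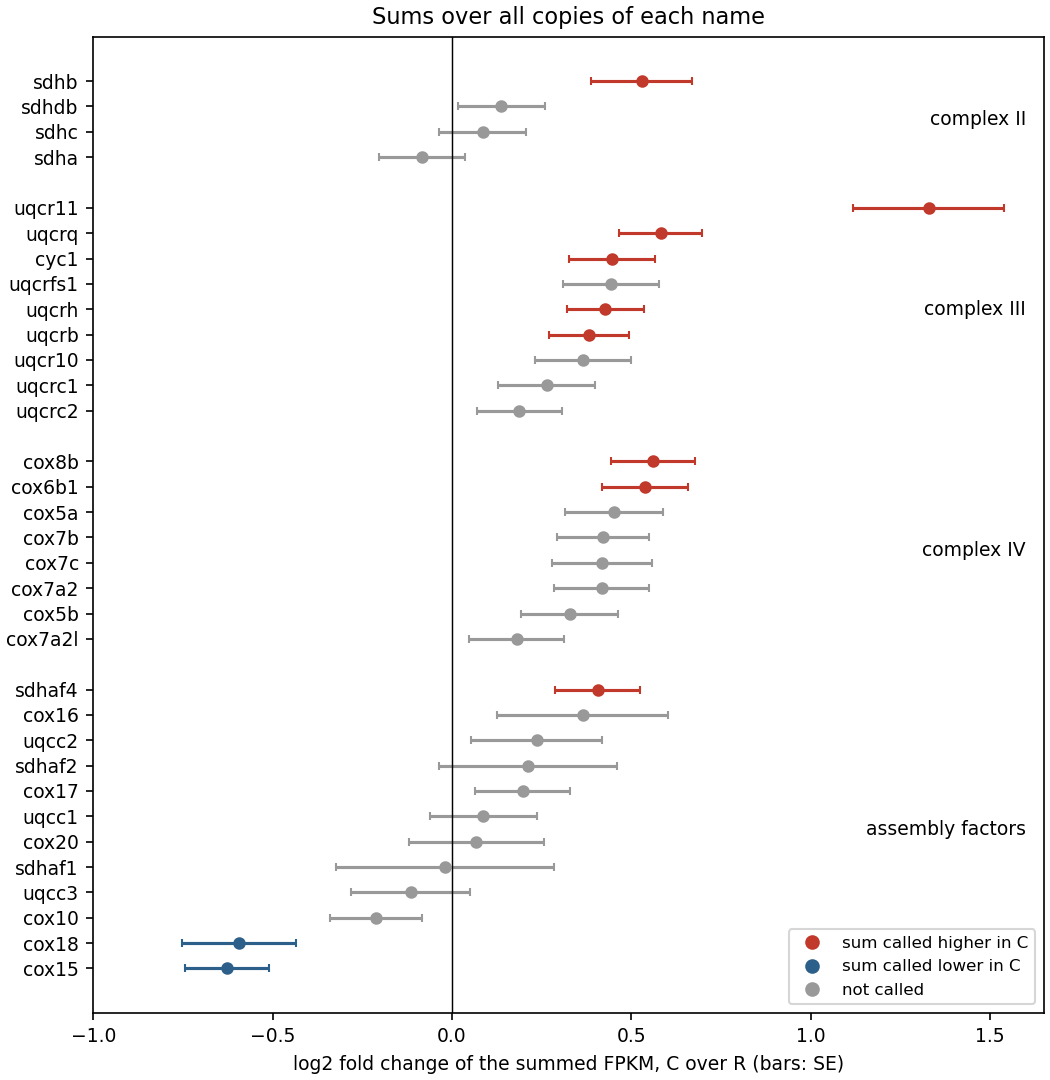
Log2 fold change, C over R, of the FPKM summed over all copies of each tested member name (horizontal axis), with bars of 1 SE, grouped by complex. All 9 complex III names and all 8 complex IV names lie right of 0, and the 2 sums called lower in C, cox15 and cox18, are assembly factors.

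In complex II, the iron-sulfur subunit sdhb, which relays electrons from the flavin to ubiquinone, was the 1 name of 4 whose sum was called. It summed to 43.4, 45.0 and 60.2 FPKM in C, against 31.7, 32.9 and 36.6 FPKM in R, without overlap. Its log2 fold change was 0.53, with an SE of 0.14 and a limma adjusted p of 0.0354, and the call was lost without R1, R2 or R3 (adjusted p = 0.116, 0.118 and 0.0663). The flavoprotein sdha, the catalytic subunit that binds succinate, had 16.0, 17.9 and 20.8 FPKM in C, against 19.6, 19.3 and 19.0 FPKM in R, overlapping ranges with a log2 fold change of -0.08. The membrane anchor subunits sdhc and sdhdb, which hold the complex in the inner membrane, also overlapped. Sdhc summed to 35.7 ± 5.40 FPKM in C, against 33.4 ± 0.611 FPKM in R, and sdhdb to 46.6 ± 6.49 FPKM in C, against 42.1 ± 2.42 FPKM in R (SD, n = 3 each).

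In complex III, the C libraries lay above the R libraries for 9 of 9 names (16.2% of all names), although 4 of these sums were not called. The largest difference among the member sums was that of uqcr11, a small membrane subunit of the complex, with 33.8, 44.0 and 63.8 FPKM in C, against 18.8, 18.5 and 15.7 FPKM in R. Its sum was 2.68 times as high in C (log2 fold change 1.33, SE 0.21, limma adjusted p = 0.00535), and it was called under every alternative that was run. Another small subunit, uqcrq, had 38.8, 36.8 and 41.1 FPKM in C, against 29.3, 23.6 and 24.4 FPKM in R, with no overlap (0.58, SE 0.12, adjusted p = 0.0122). The hinge protein uqcrh, which sits beside cytochrome c1, had 122, 125 and 146 FPKM in C, against 96.1, 100.8 and 93.4 FPKM in R (0.43, SE 0.11, adjusted p = 0.0280). Here too every C library was above every R library.

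Of the electron-carrying subunits cyc1 and uqcrfs1, the sum of cyc1 was called. Cytochrome c1, cyc1, which hands electrons to cytochrome c, had 82.2, 75.0 and 96.2 FPKM in C, against 65.1, 61.1 and 58.2 FPKM in R (0.45, SE 0.12, adjusted p = 0.0343). The Rieske iron-sulfur protein, uqcrfs1, had 108, 107 and 141 FPKM in C, against 93.1, 80.5 and 85.4 FPKM in R. Its log2 fold change was of the same size as that of cyc1, 0.44 (SE 0.13), but the sum was not called (adjusted p = 0.0525). The groups did not overlap for either. Among the remaining names, uqcrb was called (0.38, SE 0.11, adjusted p = 0.0476), and uqcr10, another small subunit, was not (0.36, SE 0.13, adjusted p = 0.0939). The core proteins uqcrc1 and uqcrc2, the large matrix-facing subunits, had the smallest log2 fold changes of the complex, 0.26 and 0.19, and neither was called. Without R2 the calls of uqcrq (adjusted p = 0.0607), uqcrh, cyc1 and uqcrb were lost. Those of uqcrh, cyc1 and uqcrb were also lost without R1 or R3, those of uqcrh and cyc1 without C1, and that of uqcrb without C2 or C3, with adjusted p between 0.0526 and 0.141.

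In complex IV, the C libraries lay above the R libraries for 7 of 8 names, against 16.2% of all names, and 2 sums were called. The cox8b sum was the highest of the member names, with 347, 312 and 399 FPKM in C, against 244, 241 and 228 FPKM in R (0.56, SE 0.12, limma adjusted p = 0.0150). Cox8b is a small accessory subunit, in mammals the isoform of heart and skeletal muscle. Its largest copy, on chromosome 21, carries the RefSeq symbol cox8a, so that the isoform of much of this sum is uncertain. The other sum called was that of cox6b1, the subunit that faces the intermembrane space and bridges the dimer, with 158, 151 and 189 FPKM in C, against 123, 108 and 111 FPKM in R (0.54, SE 0.12, adjusted p = 0.0185). Neither overlapped between the groups. The cox8b call was lost without R1 or R2 (adjusted p = 0.0527 and 0.0607), and the cox6b1 call without R2 or R3 (adjusted p = 0.0834 and 0.0583).

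None of the other accessory subunits of complex IV passed the test. Cox5a, cox7b, cox7a2 and cox7c were separated between the groups, with log2 fold changes of 0.42 to 0.45. Cox5a had 123 ± 21.8 FPKM in C, against 88.9 ± 2.74 FPKM in R (0.45, adjusted p = 0.0519), and cox7b had 123 ± 20.0 FPKM in C, against 90.5 ± 0.841 FPKM in R (0.42, adjusted p = 0.0530). Cox7a2 had 129.6 ± 20.9 FPKM in C, against 96.0 ± 4.26 FPKM in R (0.42, adjusted p = 0.0595), and cox7c had 43.1 ± 7.24 FPKM in C, against 31.8 ± 2.98 FPKM in R (0.42, adjusted p = 0.0704). In all 4 the spread was wider among the C libraries than among the R libraries. Cox5b, with 311 ± 51.8 FPKM in C, against 246 ± 15.2 FPKM in R, was also free of overlap (0.33, adjusted p = 0.124). Cox7a2l, a relative of cox7a2 that links complexes III and IV into supercomplexes, was the name whose libraries overlapped, with 72.3 ± 10.5 FPKM in C, against 63.5 ± 6.10 FPKM in R (0.18, adjusted p = 0.367).

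Assembly factors had calls at shares near those of all names. Of 12 names, 1 sum was called higher (7.93% of all names) and 2 lower (11.2%), and the C libraries lay above the R libraries for 1 name (16.2%) and below them for 3 (25.6%). The median log2 fold change was 0.08 over the 12 assembly factors and 0.42 over the 21 subunit names. A test of the difference between these medians was not made.

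Cox15, heme A synthase, makes the heme that complex IV alone uses, and its sum was lower in C. It had 8.42, 9.55 and 9.37 FPKM in C, against 15.7, 14.6 and 13.6 FPKM in R, without overlap (-0.63, SE 0.12, limma adjusted p = 0.0102). Like uqcr11, it was called under every alternative that was run. Cox10, which makes heme O in the step before, had 6.43, 5.72 and 6.60 FPKM in C, against 8.08, 7.07 and 7.05 FPKM in R; its C libraries were also below its R libraries, and it was not called (-0.21, SE 0.13, adjusted p = 0.279). Cox18, which inserts the mitochondrially encoded subunit COX2 into the membrane, had 2.18, 2.71 and 2.96 FPKM in C, against 4.39, 4.96 and 3.99 FPKM in R (-0.59, SE 0.16, adjusted p = 0.0346). This call was lost with the median log2 ratio set to 0 (adjusted p = 0.0559), after quantile normalization (0.109), with a replicate block (0.0584), and without any 1 of C1, C2, R1, R2 and R3 (adjusted p between 0.0555 and 0.132).

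The remaining assembly factors were called in neither direction, apart from sdhaf4, which is described with its copies. The copper chaperone cox17 had 62.7 ± 6.17 FPKM in C, against 54.8 ± 8.19 FPKM in R, and uqcc3, which helps assemble complex III around cytochrome b, had 88.3 ± 21.0 FPKM in C, against 94.4 ± 8.46 FPKM in R (SD, n = 3 each). Uqcc1 and uqcc2, which act on newly made cytochrome b, had log2 fold changes of 0.09 and 0.24. Cox16 and cox20, which act in the maturation of COX2, had 0.36 and 0.07. Sdhaf1, which helps insert iron-sulfur clusters into sdhb, had -0.02, and sdhaf2, which attaches the flavin to sdha, had 0.21. All 6 overlapped between the groups.

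Counted copy by copy, 15 of 71 tested models were called higher in C (8.67% of all models were) and 4 lower (11.6% of all models). The libraries did not overlap for 36 member models (41.4% of all models), with C above R for 30 (16.3%) and below R for 6 (25.1%). Log2 fold changes were above 0 for 56 member models, where 42.0% of all models were, with a median of 0.24 over the members and -0.09 over all models. Leaving out 1 library gave 5, 16 and 10 models called higher without C1, C2 and C3, and 6, 5 and 6 without R1, R2 and R3. It gave 2, 4 and 3 models called lower without C1, C2 and C3, and 3, 2 and 2 without R1, R2 and R3. Over all 33907 models, 1774, 2347 and 3163 were called higher without C1, C2 and C3, against 2939 with all libraries. Without R1, R2 and R3 these were 1793, 1628 and 2097. Calls lower over all models were 2371, 4056 and 3241 without C1, C2 and C3, against 3925 with all libraries. Without R1, R2 and R3 these were 2199, 1929 and 2423. Of the 19 called models, 7 were called under every alternative that was run: the copies of uqcr11 on chromosome 35, cox8b on chromosome 50, cox6b1 on chromosome 24, sdhb on chromosome 48 and sdhaf4 on chromosome 13, all higher, and cox15 and a uqcrc2 copy on chromosome 3, both lower. These sdhaf4 and uqcrc2 copies entered the test through 1 group alone, and the fits without 1 library kept the filter set on all 6 libraries.

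**Figure D3:**
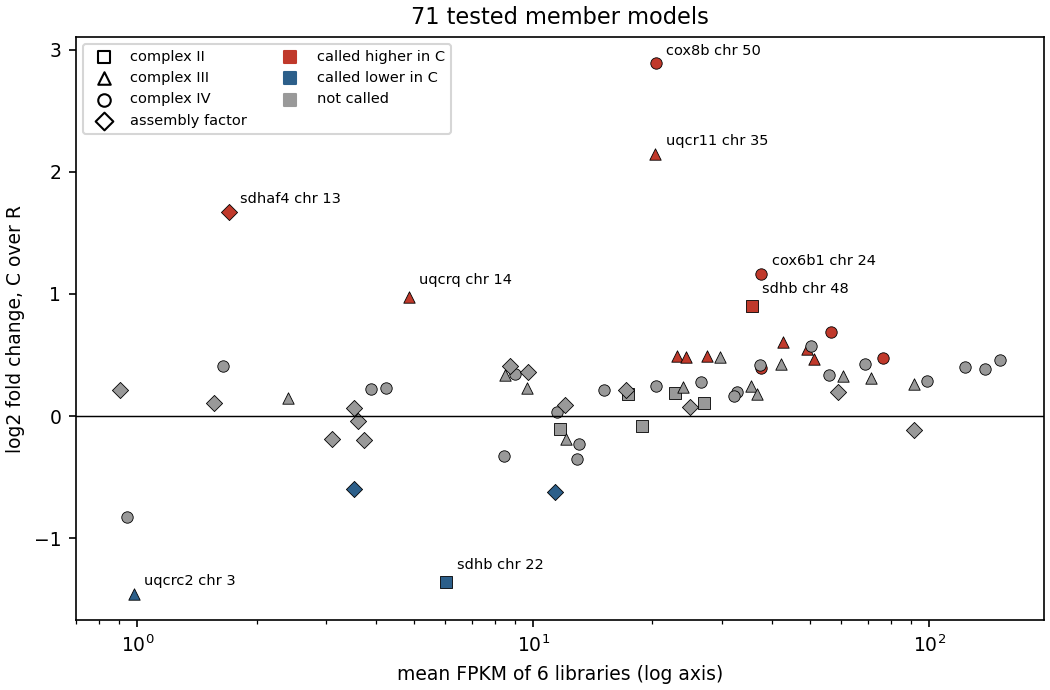
Log2 fold change, C over R (vertical axis), of the 71 tested member models against their mean FPKM over the 6 libraries (horizontal log axis), with symbols for the complex and colours for the call. Most models lie between 0 and 0.6, and copies of cox8b, uqcr11, sdhaf4, cox6b1, uqcrq and sdhb stand highest, with single copies of uqcrc2 and sdhb far below.

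Of the 22 names with at least 2 tested copies, 2 had copies called in opposite directions (9.09%, where 4.56% of 8285 such names in the whole table did), sdhb and uqcrc2. The uqcrc2 copy called lower entered the test through the R libraries alone. A called copy with no call of the sum was found for 4 names (18.2%, against 21.9% of all such names), cox7a2, cox7b, uqcrfs1 and uqcrc2, and the sum was called for 9 names (40.9%, against 19.9%). Of the pairs of copies on chromosomes numbered 25 apart with both copies tested, 17 of 24 had log2 fold changes above 0 in both, 1 below 0 in both and 6 of opposite sign. Such pairs were not counted over the whole table, where 42.0% of single models had log2 fold changes above 0. The cox6b1 copy on chromosome 16 and the uqcrc2 copy on chromosome 28 each entered 2 pairs.

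The sdhb copies were called in opposite directions. The copy on chromosome 48, from 15204804 to 15207053 (coordinates as in the table, whose assembly is not named), had 40.8, 41.4 and 58.2 FPKM in C, against 26.9, 25.2 and 21.0 FPKM in R, and was called higher (0.90, SE 0.17, limma adjusted p = 0.0101). The copy on chromosome 22, from 4604816 to 4627695, had 2.55, 3.56 and 2.04 FPKM in C, against 4.73, 7.71 and 15.6 FPKM in R, and was called lower (-1.36, SE 0.36, adjusted p = 0.0364). The groups did not overlap for either copy, and the R libraries spread widely for the second, with R3 far above the others. The chromosome 48 copy held 94.3% ± 2.27 of the sdhb FPKM in C, against 73.0% ± 14.1 in R (SD, n = 3 each). The call of the chromosome 22 copy was lost without C1, C3, R2 or R3 (adjusted p = 0.0977, 0.0894, 0.0945 and 0.0653). This copy also spans a model on the opposite strand, matched to atad3-a, which had 3.34 ± 0.178 FPKM in C, against 4.36 ± 0.641 FPKM in R and was not called. Of the 3 models that it spans, the others carry no gene name, were not tested and had 0 FPKM in every C library. That on the same strand had at most 0.340 FPKM in R. That on the opposite strand had 0, 0.165 and 1.53 FPKM in R1, R2 and R3.

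The uqcrc2 switch concerned a copy at very low level. On chromosome 3, the copy from 33370515 to 33376531 had 0.0579, 0.112 and 0 FPKM in C, against 1.67, 2.20 and 1.84 FPKM in R. These values rest on 3 reads over the C libraries and 110 over the R libraries, a depth-scaled ratio, R over C, of 35.1 (95% exact counting interval 11.7 to 173, covering counting error only). The model was called lower in C (-1.45, SE 0.17, limma adjusted p = 0.00149). It entered the test through the R libraries alone, since all C values lay below the minimum of 1 FPKM. A second copy on chromosome 3, from 35826396 to 35831779, had 27.7, 26.9 and 30.9 FPKM in C, against 22.9, 20.8 and 16.9 FPKM in R, and was called higher (0.49, SE 0.14, adjusted p = 0.0446), a call that was lost on leaving out any 1 of the 6 libraries (adjusted p between 0.0566 and 0.12). The 2 other tested copies, on chromosomes 12 and 28, had log2 fold changes of 0.18 and -0.19 and were not called. The low copy made up 2.74% ± 0.388 of the uqcrc2 FPKM in R, and the sum over copies differed by 0.19 (adjusted p = 0.294).

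For uqcr11 a single copy carried the change of the sum. The copy on chromosome 35, from 23065364 to 23067108, had 21.2, 31.3 and 50 FPKM in C, against 5.53, 7.56 and 6.51 FPKM in R (2.15, SE 0.28, limma adjusted p = 0.00231). All C libraries were far above all R libraries, and the C values themselves spread more than 2-fold. The copies on chromosomes 2 and 22 together had 12.6, 12.7 and 13.8 FPKM in C, against 13.2, 10.9 and 9.14 FPKM in R, which overlapped. The chromosome 35 copy thus held 93.4% of the difference between the sums, and 70.7% ± 7.91 of the uqcr11 FPKM in C, against 37.3% ± 6.80 in R (SD, n = 3 each).

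On the log2(FPKM + 1) scale, the cox8b copy on chromosome 50 had the largest log2 fold change of the member models. It lies from 5785969 to 5792401 and had 35.3, 35.7 and 37.9 FPKM in C, against 2.28, 7.69 and 3.49 FPKM in R (2.89, SE 0.32, limma adjusted p = 0.00114). The C libraries were close together and all above the R libraries. The ratio of means was 8.09, less than the 10.6 of the low sdhaf4 copy on chromosome 13. The low uqcrc2 copy on chromosome 3 had a depth-scaled read ratio, R over C, of 35.1. By ratio, the cox8b copy on chromosome 50 was thus not the most changed. It was also a minor copy, with 10.4% ± 1.00 of the cox8b FPKM in C, against 1.89% ± 1.17 in R. The main copies, on chromosomes 21 and 46, had 176 ± 32.8 and 140.5 ± 11.2 FPKM in C, against 126 ± 6.33 and 106 ± 8.60 FPKM in R (SD, n = 3 each). Neither main copy was called (adjusted p = 0.0721 and 0.0573), yet with the chromosome 50 copy taken out the sum of the rest still kept the C libraries, 312, 276 and 361 FPKM, above the R libraries, 242, 233 and 224 FPKM.

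Sdhaf4, a chaperone of free sdha before it joins the complex, showed the smallest adjusted p among the member models. Its copy on chromosome 13, from 18431831 to 18433431, had 3.24, 2.95 and 3.17 FPKM in C, against 0.260, 0.244 and 0.376 FPKM in R (1.67, SE 0.16, limma adjusted p = 0.00069). The groups were narrow and far apart, on 111 reads over the C libraries and 11 over the R libraries. All R values lay below the minimum of 1 FPKM, so this copy entered the test through the C libraries alone. The other copy, on chromosome 38, held most of the level and overlapped, with 18.1, 16.6 and 20.9 FPKM in C, against 14.6, 16.1 and 16.6 FPKM in R. The sum was called higher (0.41, SE 0.12, adjusted p = 0.0466), and that call was lost without C1, C3, R1, R2 or R3 (adjusted p between 0.0659 and 0.152). It was also lost without the filter on low values (adjusted p = 0.0518) and with a replicate block (0.0609). The low chromosome 13 copy held 50.5% of the difference between the sums.

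Cox6b1 had 5 tested copies, 2 of them called higher. The copy on chromosome 24, from 23939251 to 23941606, had 49.6, 41.0 and 67.5 FPKM in C, against 26.7, 18.9 and 22.4 FPKM in R (1.17, SE 0.20, limma adjusted p = 0.00731). The main copy, on chromosome 16, had 84.4, 84.1 and 99.4 FPKM in C, against 64.9, 62.8 and 63.6 FPKM in R (0.48, SE 0.12, adjusted p = 0.0278). Both kept the groups apart, and the call of the chromosome 16 copy was lost without C1, R1, R2 or R3 (adjusted p between 0.0571 and 0.10). The 3 other copies, on chromosomes 41 and 49, were each under 19 FPKM in every library, overlapped between the groups and had log2 fold changes of -0.23, 0.23 and -0.33.

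**Figure D4:**
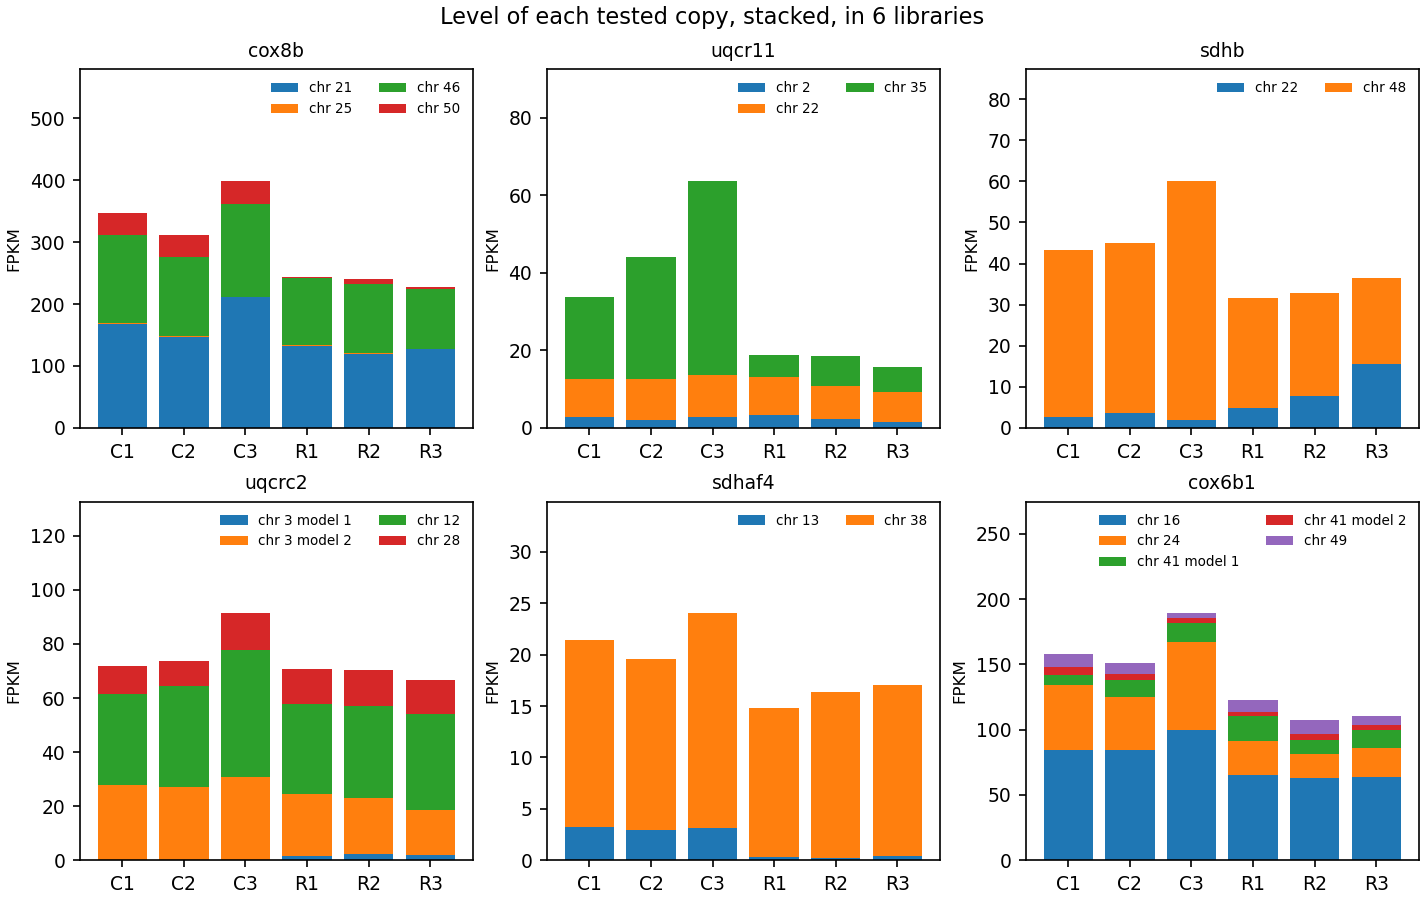
FPKM of each tested copy (stacked bars, colours are the chromosomes of the copies) in the 3 C and 3 R libraries, for 6 member names. The chromosome 35 copy of uqcr11 and the chromosome 50 copy of cox8b are much thicker in C, the sdhb copy on chromosome 22 is thicker in R, and the sdhaf4 copy on chromosome 13 is almost invisible in R.

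In several other names a called copy stood beside a copy with a difference of the same sign. For uqcrq both copies were called, on chromosome 14 with 6.71 ± 1.41 FPKM in C, against 2.98 ± 1.16 FPKM in R (0.98, adjusted p = 0.0275), and on chromosome 39 with 32.2 ± 1.91 FPKM in C, against 22.8 ± 3.99 FPKM in R (0.49, adjusted p = 0.0458). The uqcrh copy on chromosome 6 was called (0.61, adjusted p = 0.0270) and that on chromosome 31 was not (0.31, adjusted p = 0.102), with no overlap in either. The same held for uqcrb, on chromosome 19 (0.49, adjusted p = 0.0440) and chromosome 44 (0.33, adjusted p = 0.116). For cyc1, the copy on chromosome 6 was called (0.55, adjusted p = 0.0283), and the copy on chromosome 31 overlapped between the groups (0.24, adjusted p = 0.321). Without the called copy, the rest of cyc1 averaged 25.9 ± 3.00 FPKM in C, against 21.9 ± 4.22 FPKM in R (SD, n = 3 each). Every call in these names was lost without at least 1 of the libraries left out in turn, with adjusted p between 0.0582 and 0.153.

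Copy changes without a call of the sum were of modest size, apart from the low uqcrc2 copy. The cox7a2 copy on chromosome 10 had 66.4, 55.4 and 89.0 FPKM in C, against 34.7, 46.3 and 47.3 FPKM in R (0.69, SE 0.20, limma adjusted p = 0.0474). Its 4 other copies together overlapped, with 59.3 ± 4.94 FPKM in C, against 53.2 ± 3.18 FPKM in R. The cox7b copy on chromosome 21 was called (0.40, SE 0.12, adjusted p = 0.0481), while that on chromosome 46 had a log2 fold change of 0.42 with a wider error (SE 0.16, adjusted p = 0.101). The uqcrfs1 copy on chromosome 7 was called (0.47, SE 0.13, adjusted p = 0.0452), and those on chromosomes 32 and 18 had 0.43 and 0.34 (adjusted p = 0.0910 and 0.260). For cox7b and uqcrfs1 the called copies therefore differed little in size from the copies that were not called. The calls of all 3 copies were lost without C1, C3, R1, R2 or R3, and that of uqcrfs1 without C2 too (adjusted p between 0.0653 and 0.154).

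Overlapping gene models were looked for, since the strand setting of the counting is not given in the sources used here. Of the 83 members, 17 overlapped a model on the opposite strand. Among the 19 called models there were 5, the sdhb copy on chromosome 22, uqcrb on chromosome 19, uqcrh on chromosome 6, cox18 and the sdhaf4 copy on chromosome 13. The overlapping models of the last 4 had at most 2.28 FPKM in any library. Of the models overlapping a called member, those matched to atad3-a and faah were tested, and neither was called. How reads were divided in these overlaps was not tested.

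Further subunits of complex IV lay outside the rule, since their Swiss-Prot match had no gene name or another one, or no match was listed. They are described here after their values were seen. Models matched to COX4 isoform 2, the COX4 form that is oxygen-regulated and lung-rich in mammals, summed to 363, 336 and 448 FPKM in C, against 138, 145 and 144 FPKM in R, a ratio of 2.69. Most of this lay in the copy on chromosome 48, from 12368624 to 12370347, with 329, 294 and 423 FPKM in C, against 106, 109.7 and 119.9 FPKM in R (1.62, SE 0.16, limma adjusted p = 0.00075). Of 2 low copies on chromosome 49, 1 was called higher too (1.51, SE 0.29, adjusted p = 0.0103). The other (-0.54, adjusted p = 0.280) and the copy on chromosome 24 (-0.06, adjusted p = 0.813) overlapped between the groups and were not called. The single model matched to COX4 isoform 1, the common form, had 122, 125 and 159 FPKM in C, against 118, 102 and 109.9 FPKM in R and was not called (0.29, adjusted p = 0.190). The groups were thus far apart for the isoform 2 sum, mostly through its chromosome 48 copy, and only just apart for isoform 1.

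COX6A had 1 copy that was called, and it was higher in C. Its 4 copies summed to 371, 394 and 492 FPKM in C, against 212, 189 and 201 FPKM in R, a ratio of 2.09. The copy on chromosome 33 had 162, 165 and 226 FPKM in C, against 5.44, 7.33 and 7.56 FPKM in R (4.57, SE 0.18, limma adjusted p = 9.76e-06). The copy with the highest level in R, on chromosome 8, overlapped between the groups, with 184 ± 39.9 FPKM in C, against 159 ± 13.0 FPKM in R (SD, n = 3 each). A second model on chromosome 50 described as COX8B, whose best Swiss-Prot match is however tesmin, ran opposite to the member cox8b copy 1440441 bases away. It had 0, 0.113 and 0.201 FPKM in C, against 14.4, 9.86 and 10.5 FPKM in R (-3.50, SE 0.19, adjusted p = 4.51e-05), on 3 reads over the C libraries and 328 over the R libraries, a depth-scaled ratio, R over C, of 104.7 (95% exact counting interval 35.5 to 510.5). Since match and description differ, its identity as a cox8b gene is uncertain. Both chromosome 50 models together had 35.3, 35.9 and 38.1 FPKM in C, against 16.7, 17.5 and 14.0 FPKM in R.

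The remaining models outside the rule did not all have higher means in C. The 2 copies described as COX8A, with no Swiss-Prot match listed, summed to 155, 167 and 261 FPKM in C, against 221, 214 and 372 FPKM in R, a ratio of 0.722 with overlapping ranges. Their log2 fold changes were -0.44 on chromosome 20 (SE 0.28, limma adjusted p = 0.297) and -0.58 on chromosome 45 (SE 0.25, adjusted p = 0.134). The model matched to COX6C, another accessory subunit, had 64.8, 52.0 and 69.6 FPKM in C, against 49.3, 45.9 and 40.4 FPKM in R, without overlap (0.45, SE 0.15, adjusted p = 0.0697). Copies matched to cox14, an assembly factor of complex IV, summed to 10.1 ± 0.631 FPKM in C, against 9.74 ± 1.41 FPKM in R, and brawnin, an assembly factor of complex III, had 16.0 ± 3.99 FPKM in C, against 16.2 ± 1.94 FPKM in R (SD, n = 3 each), with overlap in both.

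**Figure D5:**
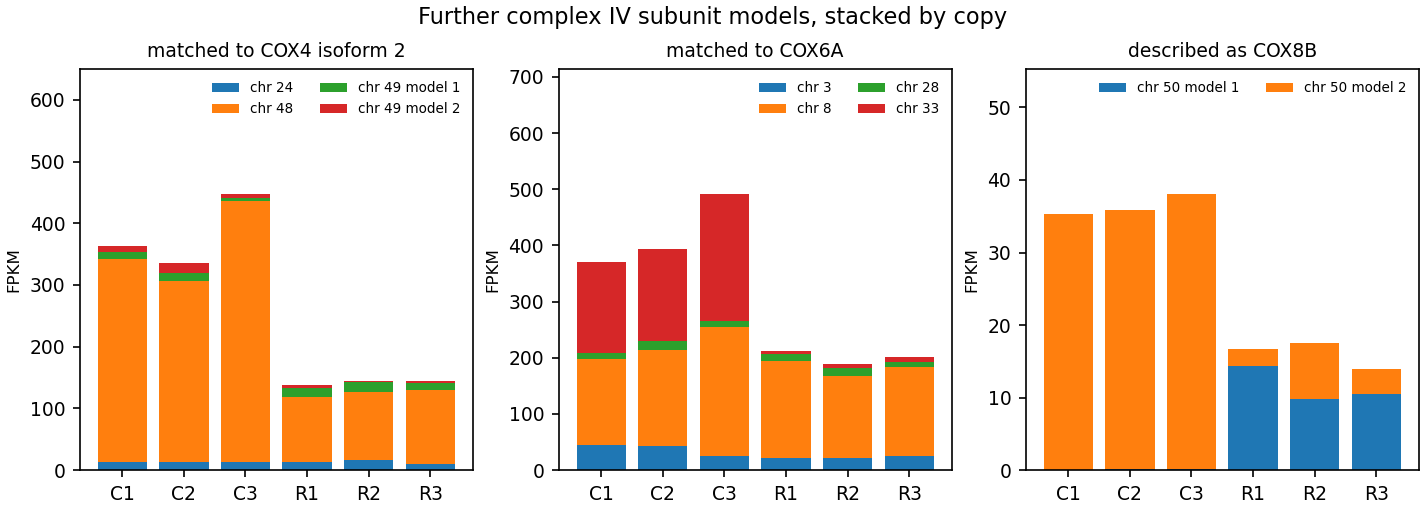
FPKM of complex IV subunit models outside the rule, stacked by copy, in the 3 C and 3 R libraries; in the right panel, model 1 is the copy matched to tesmin and model 2 is the member cox8b copy. The chromosome 48 copy of COX4 isoform 2 and the chromosome 33 copy of COX6A hold most of the gap between C and R, and the chromosome 50 models run in opposite directions.

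None of the 3 mitochondrially encoded core subunits of complex IV was called by limma, and 0 reached an unadjusted p below 0.05 or were called by limma-voom on recovered reads. Mt-co1 had 22989 ± 1850.0 FPKM in C, against 21065 ± 749 FPKM in R, mt-co2 had 24985 ± 4071 FPKM in C, against 21442 ± 1028 FPKM in R, and mt-co3 had 10143 ± 1517 FPKM in C, against 8890.3 ± 305 FPKM in R (SD, n = 3 each). Their log2 fold changes lay between 0.12 and 0.21, and all 3 overlapped between the groups. A model matched to zebrafish cytochrome c, the carrier between complexes III and IV, although its description names another protein, had 63.8 ± 12.6 FPKM in C, against 52.4 ± 5.16 FPKM in R and was not called (0.27, adjusted p = 0.275).

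Neighbouring pathways were counted in the same fits. Of 31 tested models of citric acid cycle enzymes, 5 were called higher (8.67% of all models) and none lower (11.6%) by limma, while 1 was lower at an unadjusted p below 0.05 and 1 by limma-voom. All 13 of 13 name sums had log2 fold changes above 0 (42.7% of all names), with a median of 0.21 and 3 sums called higher (7.93%). The smallest adjusted p belonged to the copy of idh3a on chromosome 25, a subunit of isocitrate dehydrogenase, with 8.71, 9.98 and 10.1 FPKM in C, against 6.29, 4.32 and 5.09 FPKM in R (0.78, limma adjusted p = 0.0123). Next came the copy of ogdh on chromosome 8, the 2-oxoglutarate dehydrogenase that feeds succinyl-CoA into the cycle, with 29.4 ± 1.06 FPKM in C, against 21.2 ± 0.768 FPKM in R (0.46, adjusted p = 0.0202). Both copies kept the C libraries above the R libraries. Summed over copies, idh3a was called higher too (0.49, limma adjusted p = 0.0438), while ogdh overlapped between the groups and was not called (0.16, adjusted p = 0.327). Of 17 models of coenzyme Q synthesis, none was called in either direction by limma or limma-voom, 4 were higher at an unadjusted p below 0.05 and 0 lower, and the smallest adjusted p in limma was 0.0564.

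Among 25 models of assembly factors outside the rule, 3 were called higher (8.67% of all models) and 2 lower (11.6%), counts near those of all models, and copies again differed in direction. Higd1a, a small hypoxia-induced protein of complex IV, had a copy on chromosome 27 with 0.0816, 0.157 and 0.0699 FPKM in C, against 9.01, 7.22 and 7.08 FPKM in R (-2.99, limma adjusted p = 5.42e-05). Its copy on chromosome 2 had 47.1, 48.4 and 59.7 FPKM in C, against 25.4, 28.6 and 32.6 FPKM in R (0.82, adjusted p = 0.00761), and the higd1a sum was called higher (0.48, adjusted p = 0.0288). Lrpprc, which stabilises mitochondrial messenger RNAs, had 1 copy on chromosome 13 lower in C (-1.14, adjusted p = 0.00346) and another higher (0.52, adjusted p = 0.0365). The lrpprc sum had every C library below every R library (25.6% of all names) and was not called (-0.30, adjusted p = 0.133). Among 23 models of regulators of mitochondrial biogenesis, 2 were called higher (8.67% of all models) and none lower (11.6%) by limma, while 1 was lower at an unadjusted p below 0.05 and 1 by limma-voom. Those called higher were copies of nrf1, a transcription factor of respiratory chain genes, with 5.66 ± 1.26 FPKM in C, against 2.74 ± 0.538 FPKM in R (0.82, adjusted p = 0.0219), and of ppargc1a, its coactivator, with 8.44 ± 1.27 FPKM in C, against 5.50 ± 0.493 FPKM in R (0.53, adjusted p = 0.0397). Summed over copies, nrf1 was called higher (0.66, limma adjusted p = 0.0169), while ppargc1a overlapped between the groups and was not called (0.36, adjusted p = 0.195). The related coactivator ppargc1b had every C library below every R library (25.6% of all names) and was not called (-0.44, adjusted p = 0.0537). The median log2 fold change of the 23 models was -0.07, against -0.09 over all models.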

How the data were processed

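Per the file headers, the deposited values are FPKM of 56251 gene models, listed with position, length and best protein match. The group-wise tables hold the same values (337506 of 337506 cells identical). The submitters' processing notes list Bowtie 0.12.5, TopHat2 2.0.9 and DESeq 1.10.1 with no role, and a pig genome build that cannot belong to goldfish identifiers. The goldfish assembly, the counter and its strand setting: not given in the sources used here. In C2, 99.998% of values, and in the other libraries 100%, were whole multiples of the value of 1 read (within 0.01), which gave the read numbers used for totals and intervals.

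Models reaching 1 FPKM in 3 or more of 6 libraries entered limma 3.58.1 (R 4.3.3; lmFit and eBayes, trend and robust set) on log2(FPKM + 1), a scale that understates changes of low genes, with group as the only term. A model could thus enter through 1 group alone. Among the called models named here, the low copies of sdhaf4 (chromosome 13), uqcrc2 (chromosome 3) and higd1a (chromosome 27) did so. The model matched to tesmin did so too. Benjamini-Hochberg adjustment ran over all 33907 models, and a call is an adjusted p below 0.05. FPKM summed per gene name were fitted likewise (12592 of 14409 names). Because the files hold FPKM, the count test foreseen for whole counts did not apply. The fits were tested on simulated reads (dispersion 0.03) with planted changes. For models, 31 of 98 planted 2-fold changes and 93 of 99 planted 4-fold changes were called. For sums, 78 of 100 and 100 of 100 were called. Of unchanged features, 25 of 34476 models and 10 of 12443 sums were called. A copy that was not called may therefore still differ. Fewer features were changed there than were called in these data, so these rates may not carry over. Intervals cover counting error only. RefSeq accessions (assembly ASM336829v1, used for names only) were found for 64 of 83 members, 19 with a symbol other than an identifier starting with LOC.

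The members, gene lists and tests were chosen with earlier results of these data known. Named are all called models and sums, opposite copies, a set of subunit names, and, of other lists, the 2 called models of smallest adjusted p; the complex IV subunits outside the rule, and further called copies of higd1a and lrpprc, were added after their values were seen. No Swiss-Prot match carried the gene names cycs, cox4i1, cox4i2, cox6a1, cox6a2, cox7a1 or cox8a. RefSeq symbols, not used by the rule, gave cox8a for the cox8b copy on chromosome 21, cox4i1 for the COX4 isoform 1 model and cox7a1 for the cox7a2 copy on chromosome 40. The name sdhd appeared as sdhda and sdhdb.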

Additional observations from a re-analysis of the deposited data

How the results depend on the processing

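No called model or sum changed direction under any alternative that was run. Against 15 models called higher in C and 4 lower, there were 9 higher without the filter on low values, 6 higher after quantile normalization, and 5 to 16 higher and 2 to 4 lower on leaving out 1 library. Without the filter, 79 member models were tested among 51243 models, of which 2729 were called higher. Against 9 sums called higher and 2 lower, there were 4 higher and 1 lower after quantile normalization, 1 lower with the median log2 ratio set to 0, and 1 to 12 higher and 1 to 2 lower on leaving out 1 library. With that median set to 0, 14 member models and 9 sums were called higher. Over all features, 3771 models and 1325 names were then called higher, and 1272 names lower. Over all features, calls higher rose after quantile normalization, from 2939 to 3460 of 33907 models and from 998 to 1250 of 12592 names. The share of member models called higher, 6 of 71, was then no larger than that of all models. For sums, 4 of 33, it stayed slightly above that of all names. After quantile normalization the log2 ratio of the summed FPKM was 0.13 for complex II, 0.28 for complex III and 0.27 for complex IV, against 0.22, 0.43 and 0.45. For the assembly factors it was -0.07, against 0.05. The causes of these differences were not tested. Limma-voom on recovered reads gave 16 models higher and 4 lower, and 9 sums higher and 2 lower. Over all features it gave 3032 models higher and 4317 lower, and 1044 names higher and 1824 lower. Replicate numbers did not pair the libraries (correlations of same-numbered deviations -0.01, 0.10 and 0.04). With the number as a replicate block, 11 models were called higher and 3 lower, and 7 sums higher and 1 lower. Over all features the block gave 2592 models higher and 3379 lower, and 925 names higher and 1349 lower. The remaining alternatives, a pseudocount of 0.1 and sums over tested models alone, kept each count within 1.5 times. With 3 libraries a group, differences near 0.4 on the log2 scale lay close to the threshold of the test.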
